A study of Mus musculus with 8 samples.

Results

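The mammalian Hox genes lie in 4 clusters, and replication initiation sites (ISs) in and around all of them were examined in the mouse B lymphoma line CH12. An IS was counted as a Hox IS when it lay within 10 kb of a protein-coding gene named Hoxa, Hoxb, Hoxc or Hoxd and a number in GENCODE M1 on the mm9 assembly. The rule took in 39 gene symbols in 40 gene records, since Hoxa3 has a pair of records, with 11 Hoxa genes on chromosome 6, 10 Hoxb genes on chromosome 11, 9 Hoxc genes on chromosome 15 and 9 Hoxd genes on chromosome 2. It found 32 of the 39116 ISs measured in wild-type and RIF1-null cells (Hoxa 6, Hoxb 8, Hoxc 13, Hoxd 5). It found 74 of the 129937 ISs measured in the hairpin-bearing RIF1-null cells (Hoxa 14, Hoxb 20, Hoxc 24, Hoxd 16).

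ISs were mapped by SNS-seq, the sequencing of short nascent DNA strands that were enriched by size and protected from lambda exonuclease by their RNA primers. The 8 libraries formed 4 groups of 2, all of stimulated CH12 cells (IL4, CD40 and TGF beta): unmodified cells (WT), cells lacking RIF1 (Rif1KO), and the same RIF1-null background carrying a short hairpin RNA against LacZ (Rif1KO_shLacZ) or against Mcm6 (Rif1KO_shMcm6). RIF1 is a replication-timing factor and MCM6 a subunit of the MCM helicase, which is loaded at potential origins. Both hairpin groups lack RIF1, so the second comparison shows MCM6 depletion on a RIF1-null background only, and the RIF1-null cells were clonal derivatives of the line.

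Hox genes encode homeodomain transcription factors that give cells their position along the body axis. Within a cluster the genes are transcribed in the same direction, and their order on the chromosome matches the order in which they are used along the axis, from paralogue group 1 at the head end to group 13 at the tail end. Polycomb complexes keep the clusters silent and Trithorax complexes keep them active, and several members, Hoxa9 and Hoxb4 among them, act in blood progenitors. Transcription of the Hox genes was not measured in the files used here.

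Each IS had 1 value per condition, pooled over both libraries, as log2 RPM, the log2 of its reads scaled to 1000000 reads inside the ISs of its table. Values of single libraries were not analysed here, so there was no test across replicates, and every SE and interval given below is counting error only. Reads inside ISs numbered 3350255 in WT, 3724571 in Rif1KO, 21071351 in Rif1KO_shLacZ and 23602750 in Rif1KO_shMcm6, and each table was scaled by itself, so levels are not compared across the tables. A Hox IS held 38 to 210 reads in WT and 52 to 490 in Rif1KO_shLacZ. In the first comparison, 22 of the 32 Hox ISs overlapped a Hox gene and 5 lay more than 1 kb away. The member farthest from a Hox gene lay 3965 bp away there and the nearest IS outside the rule 12272 bp away. The same distances were 9329 and 12269 bp in the second table.

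The sequences of a heavily used IS each of Hoxa, Hoxb and Hoxd are shown first, as examples of DNA from which initiation was mapped at Hox loci. Among the ISs of its cluster found in both tables, each had the highest rank by RPM, averaged over both. Its central 300 bases are given for the plus strand of mm9. Capitals mark matches to the G-quadruplex motif, here 4 runs of at least 3 G separated by 1 to 7 bases, or the same in C for the other strand. The windows lie at chr6:52122131-52122430 near a Hoxa3 transcription start site (TSS), chr11:96173614-96173913 upstream of Hoxb4, and chr2:74565966-74566265 in Hoxd4. All 3 hold a match. Their G and C content was 59.7% to 65.3%, above the median of 52.7% of the Hox ISs measured in WT and Rif1KO.
Hoxa3: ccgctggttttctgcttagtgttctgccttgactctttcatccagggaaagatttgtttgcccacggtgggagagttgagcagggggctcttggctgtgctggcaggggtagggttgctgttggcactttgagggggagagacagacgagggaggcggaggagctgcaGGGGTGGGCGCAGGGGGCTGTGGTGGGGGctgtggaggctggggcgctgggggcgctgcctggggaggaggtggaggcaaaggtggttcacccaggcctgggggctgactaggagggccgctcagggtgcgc
Hoxb4: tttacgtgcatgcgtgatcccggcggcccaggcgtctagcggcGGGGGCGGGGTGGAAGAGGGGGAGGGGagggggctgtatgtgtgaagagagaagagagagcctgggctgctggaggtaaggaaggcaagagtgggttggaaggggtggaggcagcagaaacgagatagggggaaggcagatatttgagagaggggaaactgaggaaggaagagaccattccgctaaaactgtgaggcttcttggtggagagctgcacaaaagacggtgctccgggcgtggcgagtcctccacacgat
Hoxd4: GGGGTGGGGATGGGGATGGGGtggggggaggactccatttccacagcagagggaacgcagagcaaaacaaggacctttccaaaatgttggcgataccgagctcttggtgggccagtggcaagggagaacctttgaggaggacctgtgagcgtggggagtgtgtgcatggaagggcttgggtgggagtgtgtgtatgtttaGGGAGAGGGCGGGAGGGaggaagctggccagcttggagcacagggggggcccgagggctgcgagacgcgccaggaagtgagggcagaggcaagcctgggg

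The next set holds 4 of the ISs whose density differed most between conditions, with the same marking, for comparison with the heavily used sites. They are chr6:52141753-52141991 at the Hoxa4 TSS, cut to 239 bases so that no untranslated sequence is shown, chr15:102859540-102859839 in a Hoxc4 intron, chr15:102824853-102825152 just downstream of Hoxc8, and chr2:74601938-74602237 over Hoxd1 coding sequence.
Hoxa4: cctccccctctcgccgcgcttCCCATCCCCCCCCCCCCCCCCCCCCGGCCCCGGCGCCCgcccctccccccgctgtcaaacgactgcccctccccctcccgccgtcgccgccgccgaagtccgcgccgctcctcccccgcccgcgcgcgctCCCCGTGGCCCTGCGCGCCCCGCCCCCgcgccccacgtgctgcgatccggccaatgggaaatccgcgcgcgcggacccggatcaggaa
Hoxc4: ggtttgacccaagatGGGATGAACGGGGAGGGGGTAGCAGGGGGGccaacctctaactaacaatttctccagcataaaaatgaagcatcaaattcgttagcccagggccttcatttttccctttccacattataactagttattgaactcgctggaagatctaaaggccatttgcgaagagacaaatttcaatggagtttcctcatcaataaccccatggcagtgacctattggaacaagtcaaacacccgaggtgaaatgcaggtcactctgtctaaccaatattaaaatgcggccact
Hoxc8: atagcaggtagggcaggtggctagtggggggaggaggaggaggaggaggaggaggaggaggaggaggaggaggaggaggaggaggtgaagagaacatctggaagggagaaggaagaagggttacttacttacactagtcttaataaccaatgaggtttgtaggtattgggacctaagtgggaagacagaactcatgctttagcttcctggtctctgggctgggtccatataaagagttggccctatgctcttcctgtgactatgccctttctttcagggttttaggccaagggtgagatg
Hoxd1: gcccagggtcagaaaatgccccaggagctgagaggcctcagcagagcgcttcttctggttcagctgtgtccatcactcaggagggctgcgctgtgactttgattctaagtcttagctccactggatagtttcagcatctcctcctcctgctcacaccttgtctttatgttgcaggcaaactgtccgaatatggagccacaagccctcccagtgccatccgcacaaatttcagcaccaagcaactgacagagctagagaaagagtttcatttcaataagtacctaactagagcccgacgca
The Hoxa4 sequence was 81.6% G and C and held 2 matches to the motif. The Hoxc4 sequence was 44.7% G and C with 1 match, while the Hoxc8 and Hoxd1 sequences, each 51.3% G and C, held none.

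Hox ISs were richer in G and C than the ISs of their table. In the first table their median G and C content was 52.7% against 46.9% for all ISs, and in the second it was 52.5% against 44.4%. Against the other ISs within 1 Mb, Hoxb and Hoxc were not richer in the first table (51.4% against 52.7% and 50.1% against 50.6%). Hoxa and Hoxd were richer there (58.0% against 48.2% and 55.7% against 49.9%). In the second table all 4 clusters were above these neighbours. The observed number of CG pairs relative to the number expected from the C and G content had a median of 0.43 in Hox ISs against 0.16 over all ISs of the first table, and 0.42 against 0.14 in the second. The G-quadruplex motif lay in the central 300 bases of 24 of 32 Hox ISs (75% against 49.0% of all ISs) and of 28 of 74 (37.8% against 21.5%). The window had that length also where an IS was shorter. These shares describe letters in a window and no structure was measured.

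Hox ISs also lay at promoters more often than the table did. Of the ISs of WT and Rif1KO, 16 of 32 Hox ISs (50%) fell within 1 kb of a protein-coding TSS, against 6.36% of all ISs, and 39 of 74 (52.7%) in the hairpin cells did, against 4.42%. The Hox rule itself uses distance to genes, so these shares are a description. Hoxa had the highest share, with 5 of 6 and 10 of 14, and Hoxb held 2 of 8 and 9 of 20.

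Hoxc was the cluster most densely covered with ISs. In the first table it held 9.58 ISs per 100 kb of the searched region, against 4.78 in Hoxa, 5.72 in Hoxb and 4.28 in Hoxd. In the second table Hoxc held 17.7, Hoxa 11.2, Hoxb 14.3 and Hoxd 13.7. Per kb of IS length, the median Hoxc IS had a mean log2 RPM at percentile 83.1 of all ISs in the first table and 89.8 in the second, while the Hoxa and Hoxd medians lay between percentiles 35.0 and 53.0 and the Hoxb medians at 67.5 and 62.0. By RPM per IS, without regard to length, Hoxc did not lead the first table: the median percentiles were 70.3 in Hoxa, 50.4 in Hoxb, 69.5 in Hoxc and 73.9 in Hoxd. In the second table they were 60.4, 59.3, 81.4 and 46.7.

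**Figure D1:**
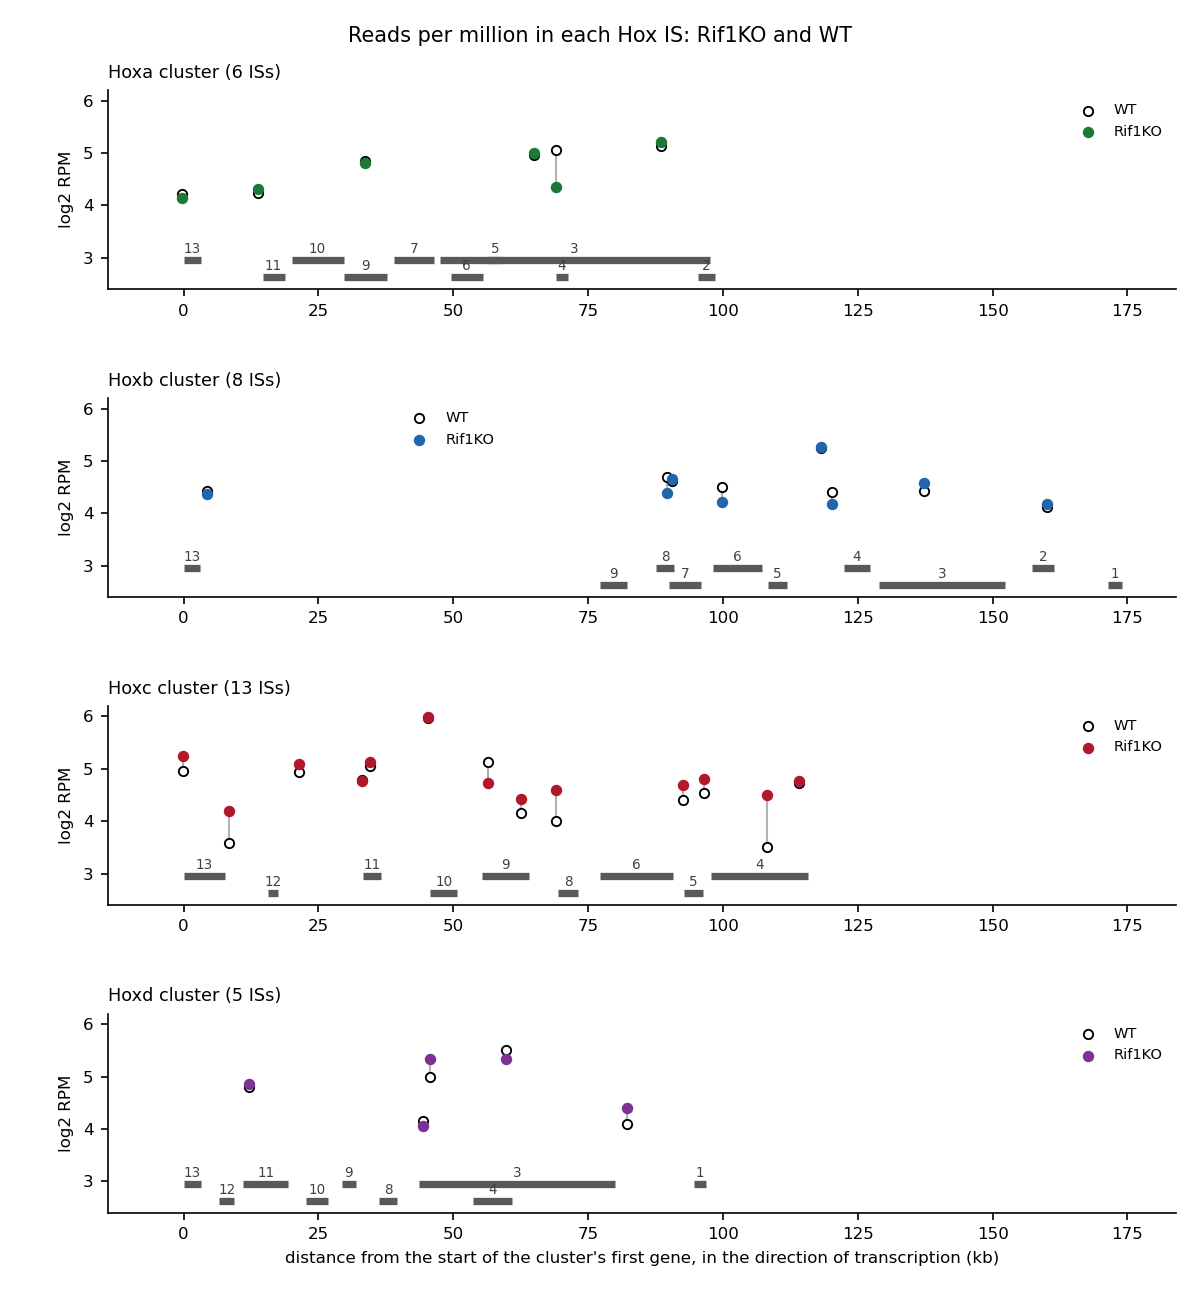
Map of the 32 Hox ISs in WT (open points) and Rif1KO (filled points), with log2 RPM per IS on the vertical axis and distance in kb along each cluster, in the direction of transcription, on the horizontal axis; grey bars are Hox genes, marked with their paralogue group. Points of the 2 conditions differ by at most 0.34 in Hoxa, Hoxb and Hoxd apart from the IS at Hoxa4, and the filled points lie above the open ones at 11 of the 13 Hoxc ISs.

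The first comparison asked how the loss of RIF1 changed the use of these sites. At Hoxa, Hoxb and Hoxd the reads of Rif1KO and WT cells were alike when summed: the log2 ratio of summed RPM over the 19 ISs was -0.04, with a 95% counting interval of -0.13 to 0.06. The clusters gave -0.09 (-0.26 to 0.08) for Hoxa, -0.07 (-0.23 to 0.09) for Hoxb and 0.07 (-0.11 to 0.25) for Hoxd, and each interval held 0. Of the 19 ISs, 10 were higher and 9 lower in Rif1KO, with a median log2 fold change of 0.02 that equalled the 0.02 of the whole table at this rounding. Of all 32 Hox ISs, Hoxc included, 2 were higher and 1 was lower at 1.5-fold or more. Over the table, 2.27% of ISs were higher and 2.7% lower at that threshold, so these counts are too small to set the Hox ISs apart from the table.

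Hoxa held the only Hox IS that was lower by 1.5-fold. It spans chr6:52141552-52142132 over the TSS of Hoxa4, a group 4 gene, with coding and untranslated sequence of the overlapping Hoxa3 and Hoxa4 records, and had a log2 RPM of 5.06 in WT and 4.35 in Rif1KO (log2 fold change -0.71 ± 0.21, counting SE, 112 and 76 reads). It was called in the WT list only. It was also the single Hox IS of the first table with no counterpart in the hairpin table, where the nearest Hoxa4 IS, at chr6:52140193-52140999 inside the gene, was a different site. The other 5 Hoxa ISs differed by -0.06 to 0.09 between the conditions, each less than its counting SE. The most heavily used of them, chr6:52121993-52122569 in coding sequence next to a TSS of Hoxa3, a gene of thymus and parathyroid formation, had 5.13 in WT and 5.21 in Rif1KO. The IS over the TSS of Hoxa9, a regulator of blood progenitors, had 4.84 and 4.82.

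Hoxb ISs all stayed within their counting error of equality at the 95% level. The fold changes ran from -0.31 ± 0.22 at chr11:96145075-96145441, in a Hoxb8 intron 130 bp from a Hoxb7 TSS, to 0.15 ± 0.23 at chr11:96192710-96193221, in a Hoxb3 intron. The most heavily used, chr11:96173494-96174033, lay between genes 3965 bp from a TSS of Hoxb4, a gene that expands blood stem cells when overexpressed, and had 5.26 in WT and 5.27 in Rif1KO. It ranked first in the cluster per kb of length as well.

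Hoxd showed the same absence of large differences. Its 5 ISs ran from -0.18 ± 0.17 at chr2:74565857-74566375, in Hoxd4 coding sequence (5.51 in WT and 5.33 in Rif1KO), to 0.34 ± 0.18 at chr2:74551658-74552356, in a Hoxd3 intron (4.997 and 5.34). Hoxd3 and Hoxd4 help to shape the first neck vertebrae. The Hoxd4 IS ranked first in the cluster by RPM and per kb. No Hoxd IS differed by more than its 95% counting interval.

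Hoxc stood apart from its surroundings. It lies in a segment of chromosome 15 whose ISs were higher in Rif1KO throughout: all 69 other ISs within 1 Mb of the cluster had a fold change above 0, with a median of 0.60, a range of 0.16 to 1.201 and a summed log2 ratio of 0.60 (0.55 to 0.64), and 35 of them were 1.5-fold higher or more. The 13 Hoxc ISs had a summed log2 ratio of 0.17 (0.06 to 0.28) and a median of 0.26, with 11 above 0 and 2 at 1.5-fold. Without ISs under the lower quartile of mean log2 RPM the summed ratio was 0.11 and its interval held 0 (-0.0059 to 0.23). The cluster was therefore lower than its neighbours by 0.43 on the log2 scale, with a counting interval for the difference (Hoxc minus neighbours) of -0.55 to -0.31. Of the 13 Hoxc ISs, 6 had a fold change under the lowest of the 69 neighbours and 11 were under the neighbours' median.

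The neighbours were above the cluster on both sides. The 5 ISs in the first 100 kb on the Hoxc13 side had fold changes of 0.51 to 0.90 and a summed ratio of 0.67 (0.50 to 0.85), and the 9 ISs between 100 and 250 kb gave 0.78 (0.66 to 0.91). On the Hoxc4 side the 3 ISs in the first 100 kb had 0.42 to 0.53 and a summed ratio of 0.45 (0.25 to 0.66), and the 4 ISs out to 250 kb gave 0.50 (0.28 to 0.73). All 8 bins of distance out to 1000 kb had a summed ratio above that of Hoxc. The lowest, 250 to 500 kb on the Hoxc4 side, gave 0.32 (0.19 to 0.45), and its interval and that of the first 100 kb on the same side overlapped the Hoxc interval.

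The difference was as large among sites called in both conditions. An IS enters the table when it was called in either condition, and ISs called in Rif1KO alone tend to be higher there (median 0.18 over the table). Among ISs called in both lists, the 8 Hoxc ISs gave 0.05 (-0.08 to 0.18) and the 30 neighbours 0.54 (0.48 to 0.60), a difference of -0.48 (-0.63 to -0.34). Median G and C content was 50.1% in the Hoxc ISs and 50.6% in the neighbours, and median log2 RPM in WT was 4.73 and 4.58. The observed relative to expected number of CG pairs had a median of 0.53 in Hoxc ISs and 0.19 in the neighbours. The other clusters were also above their neighbours in CG pairs (0.40 against 0.17 in Hoxa, 0.40 against 0.24 in Hoxb and 0.43 against 0.19 in Hoxd). The part of these measures in the difference was not tested. Input genomic DNA was not analysed here, so a gain of DNA copies and more frequent initiation in the surrounding segment cannot be told apart.

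**Figure D2:**
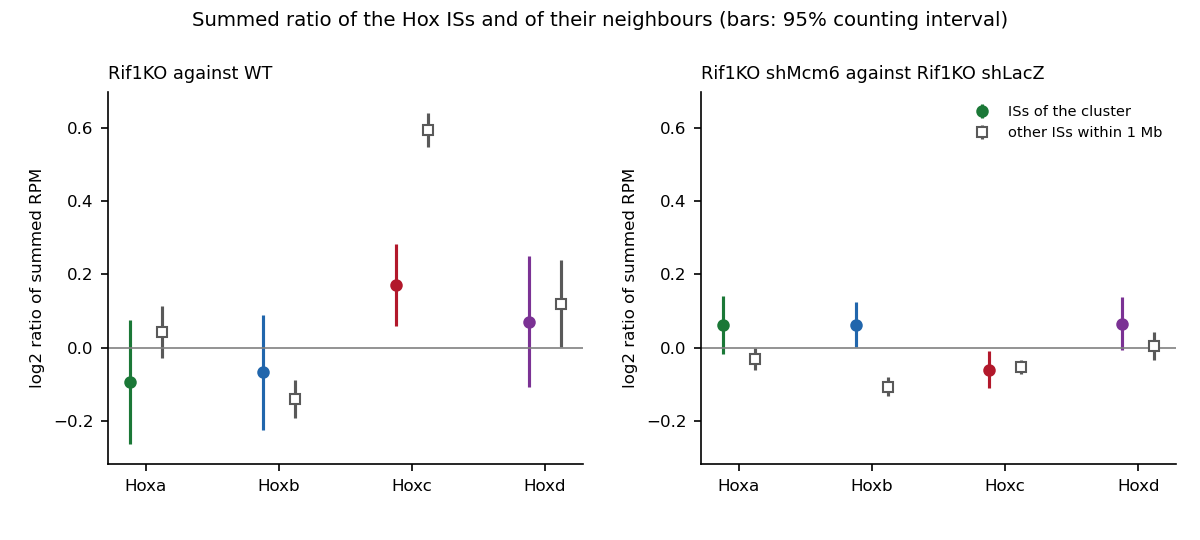
Log2 ratio of summed RPM for the ISs of each Hox cluster (coloured circles) and for the other ISs within 1 Mb of it (open squares), in both comparisons, with 95% counting intervals as bars. In Rif1KO against WT the Hoxc circle lies at 0.17 and its neighbours at 0.60, and in the MCM6 comparison they lie at -0.06 and -0.05.

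The heavily used Hoxc ISs described here had fold changes from -0.39 to 0.30, and differences between them were not tested. The most heavily used, chr15:102796561-102797316 over the TSS of Hoxc10, a gene of hindlimb and lumbar identity, had 5.97 in WT and 5.998 in Rif1KO (0.03 ± 0.14, 210 and 238 reads). The next by RPM, chr15:102751195-102751769 over the TSS of Hoxc13, had 4.96 and 5.25 (0.30 ± 0.19, 104 and 142 reads). Nearer to Hoxc10, both ISs at Hoxc11, chr15:102784326-102784762 and chr15:102785930-102786305, had -0.03 ± 0.21 and 0.07 ± 0.19. The IS in an intron of Hoxc9, chr15:102807758-102808250, was the only one lower by more than its 95% counting interval, with 5.13 in WT and 4.73 in Rif1KO (-0.39 ± 0.20).

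Of the 11 Hoxc ISs above 0, 6 were called in both lists and 5 in Rif1KO alone, and the 3 with the highest fold changes were among the 5. The highest, chr15:102859530-102859849 in an intron of Hoxc4, had 3.504 in WT and 4.50 in Rif1KO (0.99 ± 0.28, 38 and 84 reads). HOXC4 is known to bind the promoter of the gene for AID, the antibody-diversifying deaminase of B cells. The IS 483 bp downstream of Hoxc13, a hair follicle regulator, at chr15:102759728-102760141, had 3.58 and 4.19 (0.61 ± 0.29, 40 and 68 reads). Just short of the threshold, an IS 261 bp from the Hoxc8 TSS, chr15:102820414-102820792, had 4.01 and 4.59 (0.58 ± 0.25). The other IS of Hoxc4, chr15:102865359-102865790, 533 bp from a TSS, had 4.73 and 4.78 (0.04 ± 0.21), so the gene held both a strongly differing and a level site.

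The lists of ISs called in each condition were counted next. Within 10 kb of Hox genes, 23 ISs were called in WT, 31 in Rif1KO, 61 in Rif1KO_shLacZ and 67 in Rif1KO_shMcm6. These were 0.0891%, 0.0923%, 0.0606% and 0.0579% of each list, so the share of the list was alike within each pair. Hoxc accounted for most of the difference between the first pair, with 8 ISs in WT and 13 in Rif1KO, while Hoxa had 6 and 5, Hoxb 6 and 8 and Hoxd 3 and 5. The hairpin libraries held more reads inside ISs and gave longer lists than the libraries without a hairpin, so counts are compared within a pair only.

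**Figure D3:**
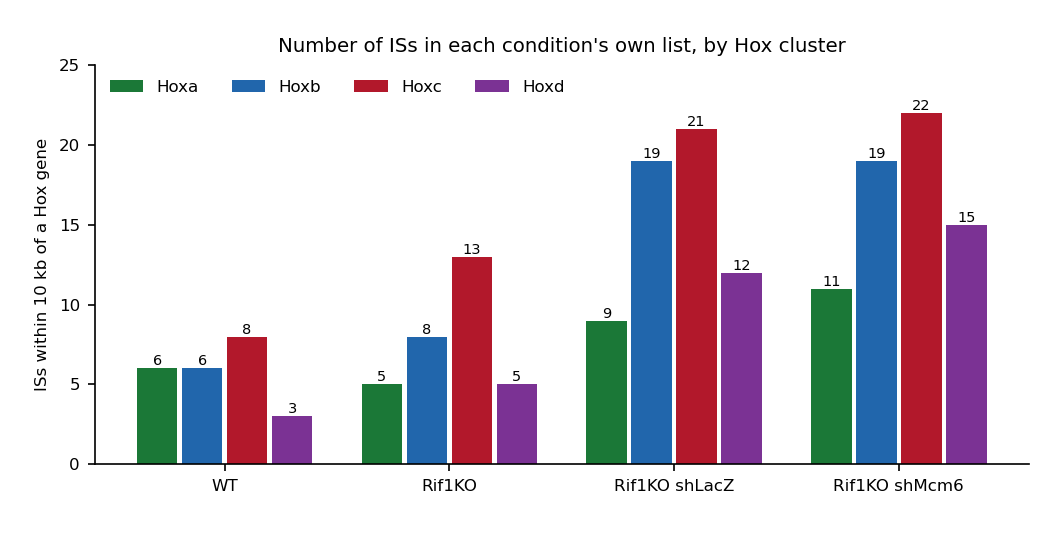
Number of ISs within 10 kb of a Hox gene in each condition's own list (bars, printed above each), by cluster. Hoxc has the tallest bar in every list, from 8 in WT to 22 in Rif1KO_shMcm6.

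Counted by gene, 19 of the 39 Hox genes had an IS within 1 kb of the gene in WT and 19 in Rif1KO (48.7% each), against 25.5% and 26.8% of all protein-coding genes. Hoxa4 had an IS in WT but not in Rif1KO, and Hoxc8 the reverse. With hairpins the number was 24 in Rif1KO_shLacZ and 30 in Rif1KO_shMcm6 (61.5% and 76.9%), against 43.7% and 46.2% of all protein-coding genes. The Rif1KO_shMcm6 list was the longer of that pair, with 115766 ISs against 100612. A call in 1 list alone need not be a difference in use. The Hoxa9 IS, called in Rif1KO_shMcm6 alone, had a log2 RPM of 3.87 in Rif1KO_shLacZ and 3.78 in Rif1KO_shMcm6. The Hoxa11 IS, called in Rif1KO_shLacZ alone, had 3.03 and 3.18. There were 15 genes with an IS in all 4 lists: Hoxa3, Hoxa13, Hoxb2, Hoxb3, Hoxb6, Hoxb7, Hoxb8, Hoxc4, Hoxc5, Hoxc9, Hoxc10, Hoxc11, Hoxc13, Hoxd3 and Hoxd11. The 8 genes without an IS within 1 kb in any list were Hoxa2, Hoxa6, Hoxa10, Hoxb1, Hoxb4, Hoxc12, Hoxd10 and Hoxd12. Hoxb4 nevertheless had the heavily used IS shown above upstream of it. Hoxa3 had the most ISs of its cluster in WT (3 in WT, 2 in Rif1KO), and Hoxd3 had the most in Hoxd (2 and 3). Both have the longest gene span of their cluster, and ISs at overlapping Hox genes count for them too. In Rif1KO_shMcm6, Hoxa3 and Hoxb3 had 4 each, and Hoxb8, Hoxc6, Hoxc9, Hoxd3 and Hoxd11 had 3 each.

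Arranged by paralogue group, group 3 was the only group whose members, Hoxa3, Hoxb3 and Hoxd3, each had an IS in all 4 lists. These genes also have the longest spans of their clusters (chr6:52113358-52163338, chr11:96184640-96207999 and chr2:74549986-74586331). Hoxa4 and Hoxa5 overlap Hoxa3, and Hoxd4 overlaps Hoxd3, so ISs at those genes can count for group 3 too. All 3 members of group 11 had one in WT, Rif1KO and Rif1KO_shLacZ. Hoxd1, of group 1, had an IS in Rif1KO_shMcm6 and in none of the other 3 lists. Of the 11 genes of groups 5 to 8, 4 had an IS in WT, 5 in Rif1KO, 8 in Rif1KO_shLacZ and 10 in Rif1KO_shMcm6. Of the 12 genes of groups 1 to 4 the numbers were 7, 6, 6 and 9, and of the 16 genes of groups 9 to 13 they were 8, 8, 10 and 11.

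The second comparison asked how depletion of MCM6 changed these sites in cells that already lacked RIF1. At Hoxa, Hoxb and Hoxd the 50 ISs were slightly higher in Rif1KO_shMcm6, with a summed log2 ratio of 0.06 (0.02 to 0.10) and a median of 0.10, and 31 of them above 0. Without ISs under the lower quartile of mean log2 RPM the ratio was 0.042 and its interval held 0 (-0.00082 to 0.085). The clusters were alike, at 0.06 (-0.02 to 0.14) for Hoxa, 0.06 (0.0011 to 0.12) for Hoxb and 0.07 (-0.01 to 0.14) for Hoxd. The 24 Hoxc ISs were slightly lower, at -0.06 (-0.11 to -0.01), with 13 below 0. With fold changes centred on the table median this ratio was -0.050 and its interval held 0 (-0.10 to 0.0012). The table median was -0.01. Past 1.5-fold, 4 of the 74 Hox ISs were higher and 1 was lower, where 4.8% of the table was higher and 1.51% lower, so the members' shares of 5.41% and 1.35% were near those of the table.

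**Figure D4:**
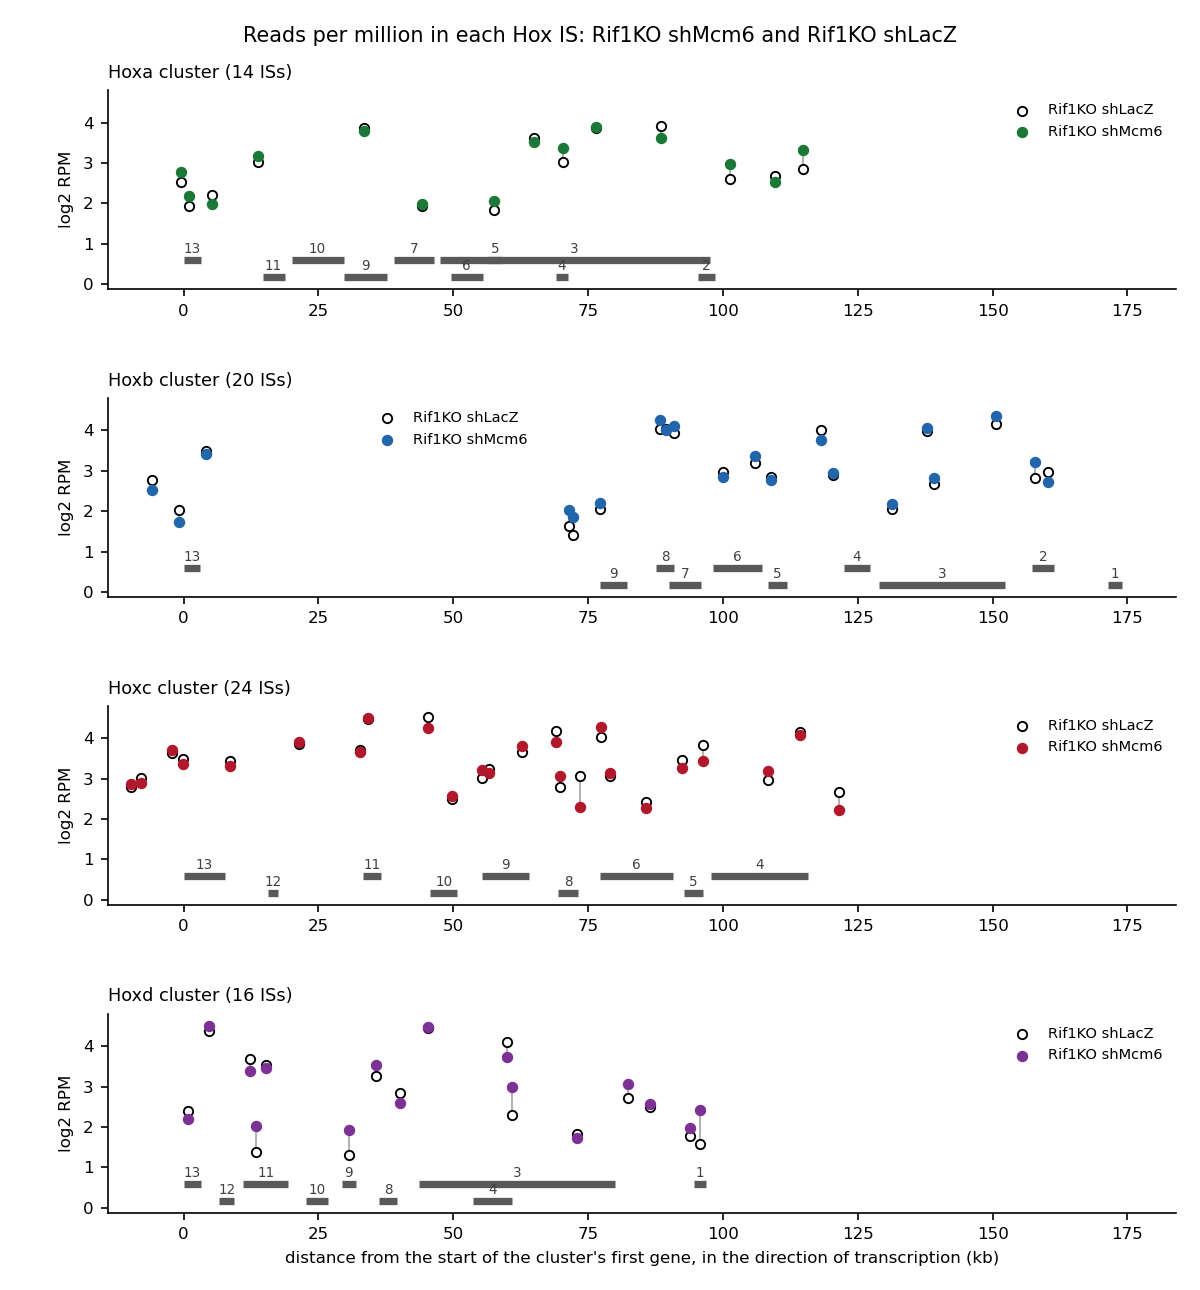
Map of the 74 Hox ISs in Rif1KO_shLacZ (open points) and Rif1KO_shMcm6 (filled points), with log2 RPM per IS on the vertical axis and distance in kb along each cluster on the horizontal axis; grey bars are Hox genes, marked with their paralogue group. The separated pairs with the filled point on top in Hoxd are lightly used sites, and the pair with the filled point well below in Hoxc lies just past Hoxc8.

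All 4 ISs that were higher by 1.5-fold were in Hoxd. One lay in an intron of Hoxd11, 49 bp from a TSS (chr2:74519724-74520007, 1.38 in Rif1KO_shLacZ and 2.02 in Rif1KO_shMcm6, 0.64 ± 0.24). Another lay in an intron of Hoxd9 (chr2:74536909-74537230, 1.30 and 1.91, 0.61 ± 0.25). The others lay at the 3′ end of Hoxd4 (chr2:74566803-74567582, 2.29 and 3.001, 0.71 ± 0.18) and over coding sequence of Hoxd1, 789 bp from a TSS (chr2:74601826-74602350, 1.58 and 2.43, 0.85 ± 0.22). Each of the 4 was called in Rif1KO_shMcm6 alone and was lightly used, with 52 to 103 reads in Rif1KO_shLacZ. Hoxd11 takes part in forelimb and kidney formation and Hoxd1 in the wiring of pain-sensing neurons. Hoxd also held sites lower in Rif1KO_shMcm6. The IS upstream of the 3′ site in Hoxd4, chr2:74565874-74566621, had 4.11 and 3.73 (-0.38 ± 0.11, 364 and 314 reads). It too was called in Rif1KO_shMcm6 alone, although it was lower there. These adjacent sites of the same gene thus differed in opposite directions by more than their counting error. The most heavily read Hoxd IS, chr2:74550699-74552701 in Hoxd3, had 4.46 and 4.49 (0.03 ± 0.09), and it was also the widest at 2003 bp.

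Hoxc held the only IS that was lower by 1.5-fold. It lay 137 bp past the end of Hoxc8, chr15:102824835-102825171, with 3.06 in Rif1KO_shLacZ and 2.30 in Rif1KO_shMcm6 (-0.77 ± 0.17, 176 and 116 reads), and was called in Rif1KO_shLacZ alone. The IS with the highest fold change of the cluster was in the same gene, at chr15:102821129-102821679 over coding and untranslated sequence 76 bp from a TSS, with 2.78 and 3.07 (0.29 ± 0.16). The most heavily read, chr15:102785148-102786506 in Hoxc11, was level at 4.48 and 4.51, while the IS at the Hoxc10 TSS, chr15:102796311-102797245, had 4.54 and 4.25 (-0.29 ± 0.09). Both groups of this comparison lack RIF1, and the chromosome 15 neighbours of Hoxc, 146 ISs, gave -0.05 (-0.07 to -0.03), no different from Hoxc itself within counting error (difference -0.01, -0.06 to 0.05).

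In Hoxa and Hoxb no IS passed 1.5-fold. Of the 14 Hoxa ISs 9 were above 0, and their fold changes ran from -0.28 to 0.48. The lowest, -0.28 ± 0.12, was at chr6:52121979-52122728 in Hoxa3 (3.91 and 3.63). In Hoxb the fold changes ran from -0.29 ± 0.22 at chr11:96054538-96054978, 652 bp from the TSS of Hoxb13, a prostate regulator, to 0.46 ± 0.25 at chr11:96127636-96128001 upstream of Hoxb9. The IS of Hoxb3 with the most reads, chr11:96205522-96206882, had 4.16 and 4.36 (0.20 ± 0.10). In both clusters the Hox ISs were above the other ISs within 1 Mb, by 0.09 (0.01 to 0.18) in Hoxa and by 0.17 (0.10 to 0.24) in Hoxb, and the difference in Hoxd was 0.06 (-0.02 to 0.14). Among ISs called in both lists these differences were 0.22 (0.10 to 0.33), 0.18 (0.11 to 0.26) and 0.08 (-0.01 to 0.18). Not every bin of distance lay below its cluster. The first 100 kb at higher coordinates gave 0.12 (-0.01 to 0.26) beside Hoxa and 0.08 (-0.14 to 0.31) beside Hoxb. From 100 to 250 kb at lower coordinates, the bin beside Hoxb gave 0.31 (0.21 to 0.41). The remaining bins of Hoxa and Hoxb were below their cluster.

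**Figure D5:**
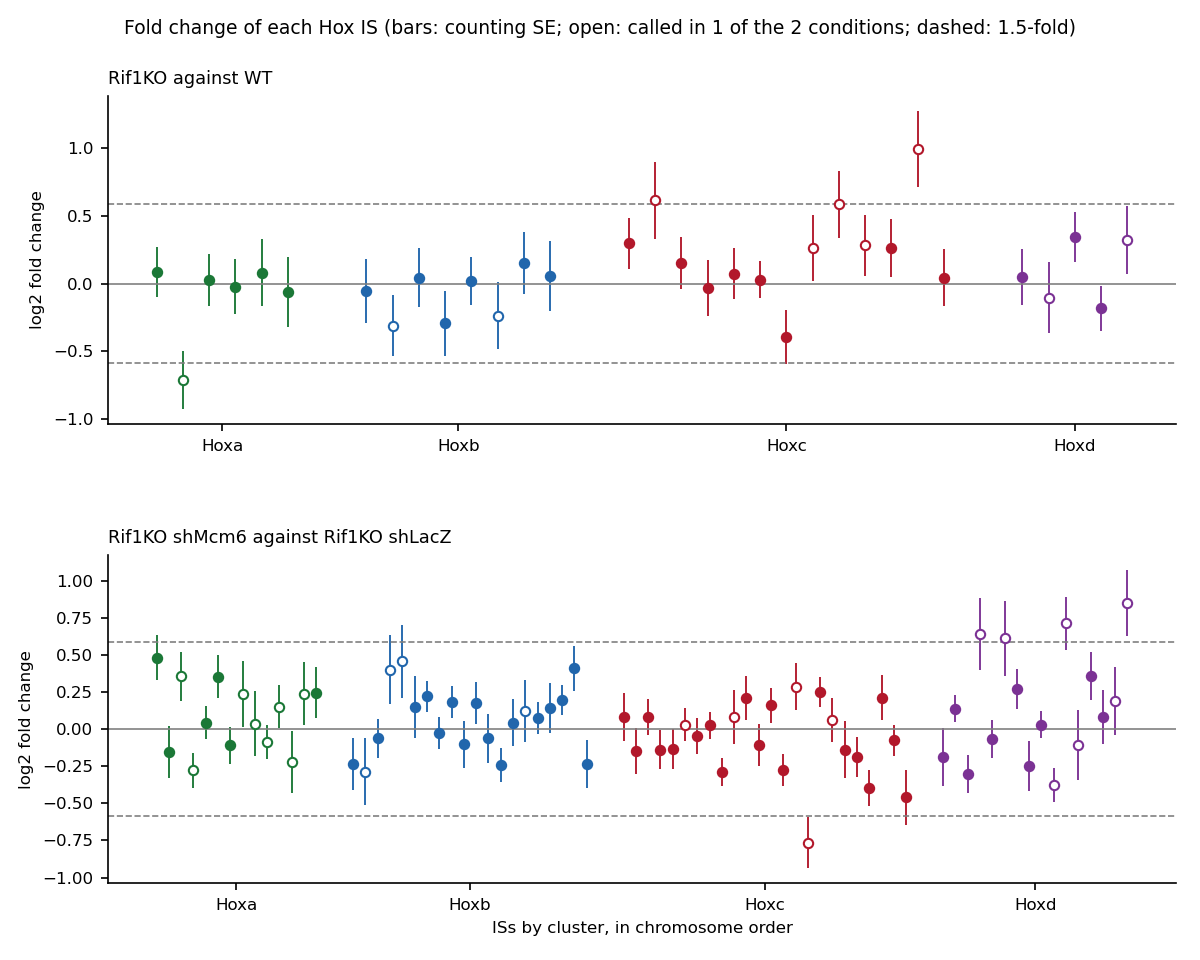
Log2 fold change of every Hox IS with its counting SE (bars), in chromosome order within each cluster, for both comparisons; open points were called in only 1 of the 2 conditions and dashed lines mark 1.5-fold. All 8 points at or past the dashed lines are open.

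Over both comparisons, each of the 8 Hox ISs past 1.5-fold was called in 1 of the paired lists only, and none of the 22 and 50 Hox ISs called in both lists was. Over the whole tables the same split held in part: 0.425% of ISs called in both lists were 1.5-fold higher in Rif1KO and 1.30% in Rif1KO_shMcm6, against 5.99% and 16.8% of those called in the treated list alone. Lower by 1.5-fold were 1.29% and 0.751% of ISs called in both lists. Among those called in the control list alone, 14.2% and 8.73% were lower. Calling uses the same reads as the fold change, so membership of a list gives no separate evidence of a difference.

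Of the 32 Hox ISs of the first table, 31 overlapped a Hox IS of the second (96.9%, against 83.5% of all ISs of the first table). Of the 74 ISs of the second, 44 were not in the first (59.5%, against 75.2% of all ISs of that longer table). The ISs in the second table alone were narrower (median 556.5 bp against 743.5 bp) and less used (median log2 RPM in Rif1KO_shLacZ 2.68 against 3.70), and all 5 that passed 1.5-fold upon MCM6 depletion were among these 44. Rif1KO and Rif1KO_shLacZ are the treated and the control side of their tables, and no sample enters both. At the 13 Hoxc ISs found in both tables, 11 were higher upon RIF1 loss, of which 7 were lower and 4 higher upon MCM6 depletion. The Hoxc4 intronic site that led the first comparison had 0.21 ± 0.15 in the second, and the Hoxc8 promoter site had -0.28 ± 0.11.

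Genes that act with the Hox genes were set beside them. Pbx, Meis and Pknox proteins bind DNA together with Hox proteins, and of 25 ISs near 7 of the 9 such genes none passed 1.5-fold upon RIF1 loss (median -0.01, range -0.53 to 0.41). Upon MCM6 depletion 4 of 74 were higher and 1, in Pknox1, was lower, near the 4.8% and 1.51% of the table. The 16 Polycomb genes had 19 ISs near 9 of them in the first table, and 1 was lower by 1.5-fold, where 2.7% of the table was, in Ezh2, the methyltransferase of Polycomb complex PRC2, at chr6:47544331-47544859 with 4.43 in WT and 3.35 in Rif1KO (-1.07 ± 0.29, 72 and 38 reads). In the second table they had 51 ISs, of which 5 were higher and 3 lower, among them both lower ISs in Jarid2 and 1 lower and 2 higher ISs at Bmi1, against 4.8% higher and 1.51% lower over the table. The 5 Trithorax genes had 6 ISs in the first table, none past the threshold, where 2.27% of the table was higher and 2.7% lower. In the second table they had 12, of which 2 were lower, at Ash2l and Mll1, where 1.51% of the table was lower. Near Evx1 and Evx2, the homeobox genes that flank Hoxa and Hoxd, lay 1 IS in the first table and 5 in the second. Near the 5 ParaHox genes lay 3 and 8. None of these passed 1.5-fold, where 2.27% and 4.8% of the tables were higher and 2.7% and 1.51% lower. The numbers are too small to set these genes apart from the tables.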

How the data were processed

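SNS-seq was measured in 8 CH12 libraries in 4 groups of 2, grouped by the GEO titles. Replicates were separately thawed vials. The authors trimmed reads (Trim Galore 0.6.4, cutadapt 2.6), kept unique Bowtie 1.2.3 alignments to mm9, called peaks per replicate with MACS at q 0.01 without input DNA, took consensus peaks, kept only clustered ones as ISs, and merged the sets of each pair of conditions. The deposited tables hold log2 RPM (reads scaled to 1000000 inside the ISs of the table), pooled to a single value for each condition. How replicates were pooled is not given in the sources used here. Linear values were whole multiples of 1 read, so reads were recovered exactly. A fold-change category column by the authors was not used.

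Without replicate values no count model or test across samples was run. Summed ratios have exact 95% binomial intervals and single ISs a counting SE from their reads. Both cover counting error only, and PCR copies are not independent molecules. The summed intervals were checked on simulated reads with counting error alone, which says nothing about spread between libraries. The SE of single ISs was not checked in this way. Differences at or past 1.5-fold were counted beside the share of the table. Gene models were GENCODE M1, and sequences were read from the NCBIM37 (mm9) genome, where 0 ISs ran past a chromosome end. Scripts used Python 3.11.15, pandas 2.3.3 and SciPy 1.17.1.

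The ISs described singly were, per cluster and table, those with the highest mean log2 RPM, highest and lowest fold change, and all past 1.5-fold, with the gene of most ISs per cluster. Other sites beside them were named after their values were seen, and single sites and a sequence that this rule takes in are in part not reported here. Members and lists were chosen with earlier results of these data known. Alternatives changed the distance (1 and 50 kb, or midpoint), the ISs kept, the centring, the threshold (2-fold, log2 0.32) and the pseudocount.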

Additional observations from a re-analysis of the deposited data

How the results depend on the processing

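Of 58 recomputed values, 48 stayed within the counting interval of the value reported (or within 1.5 times, for counts), 10 moved and 0 changed sign against an interval that left out 0. With only ISs called in both conditions, the summed log2 ratio of Hoxc upon RIF1 loss was 0.052 and its interval held 0 (-0.078 to 0.18), and the number of Hox ISs past 1.5-fold was 0 upon RIF1 loss and 0 upon MCM6 depletion. Without ISs under the lower quartile of mean log2 RPM these counts were 1 and 2. A 2-fold threshold gave 0 and 0, and a log2 threshold of 0.32 gave 6 and 15. With log2(RPM + 1) the count upon MCM6 depletion was 3. Intervals also came to hold 0 for Hoxc upon RIF1 loss without the lower quartile (0.11, -0.0059 to 0.23), for Hoxa, Hoxb and Hoxd upon MCM6 depletion without it (0.042, -0.00082 to 0.085), and for Hoxc upon MCM6 depletion with fold changes centred on the table median (-0.050, -0.10 to 0.0012). Distances of 1 and 50 kb kept every ratio and count within those bounds, with 20 to 54 ISs per list at 1 kb and 26 to 82 at 50 kb. The cause of these changes was not tested beyond what each setting leaves out.

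No paired analysis was possible because each condition has a single value in the tables used here, merged over its 2 libraries, which also leaves no replicate in them to omit. Values of the single libraries were not analysed here. Depth limits the single ISs most: counting SEs ran from 0.14 to 0.29 in the first table and from 0.09 to 0.25 in the second, so differences smaller than the 95% counting interval were not detectable at this depth.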

Other observations

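MicroRNA genes of the Hox clusters were looked at as values only. No Hox IS overlapped Mir10a, Mir10b, Mir196a-1, Mir196a-2, Mir196b or Mir615. In the hairpin table the nearest Hox IS lay 372 bp from Mir196a-1, 1080 bp from Mir615, 1680 bp from Mir10b, 2169 bp from Mir196b, 2212 bp from Mir10a and 2218 bp from Mir196a-2. In the WT and Rif1KO table the nearest lay 966 bp from Mir615 and 18496 bp from Mir196a-1.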
